A study of Arabidopsis thaliana with 48 samples.

Results

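Etiolated Col-0 seedlings of Arabidopsis thaliana that had spent 45 min in continuous blue light were compared with seedlings left in darkness for those 45 min, by their transcripts on ATH1 arrays. The arrays were chosen by their labelled light treatment and harvest, which gave 3 blue and 3 dark arrays, together 6 of the 48 arrays of the study. Blue light had its peak at 453 nm and was given at 10 µmol per m2 and s. All groups shared the same history: 18 mg of seed on agar medium, 48 h at 8 °C, a 2 h germination treatment that the labels of the blue and dark groups at 45 min give as red light, and 94 h of darkness at 22 °C. The dark control is therefore a seedling that had seen red light on the first day, not one that was never lit. Further groups used here, with 3 arrays each, are 45 min of continuous light at the same photon fluence rate, either white, red (650 nm) or far-red (715 nm), and blue light and darkness harvested at 4 h. The labelled material is mainly hypocotyl and cotyledons, taken in bulk, so fewer cells of a type and less RNA per cell cannot be told apart in any value below. No label states that replicates are separate cultures, so the p-values weigh a difference against a spread among arrays that can be technical, and the number of arrays limits the precision.

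Blue light is read by cryptochromes, which hold back degradation of the transcription factor HY5 and its relatives through the COP1 complex, and by phototropins, which direct growth at the plasma membrane. The phytochromes, best known for red and far-red light, also absorb in the blue and remove PIF factors, which in darkness keep growth and auxin genes active. An etiolated seedling in blue light slows the elongation of its hypocotyl, opens its cotyledons and begins to build chloroplasts.

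After 45 min of blue light, 643 of 15777 probe sets tested (4.08%) had changed at an adjusted p under 0.05 (limma over all arrays of the study, Benjamini-Hochberg within the comparison). Of these, 357 (2.26%) were higher and 286 (1.81%) lower in blue light. Changes are log2 differences of MAS5 signal + 1, blue minus dark, with their SE, and n is 3 arrays in each group throughout. The changes were mostly modest: the median size was 0.93 among the higher and 0.78 among the lower probe sets, 157 and 94 passed 2-fold, and 46 and 13 passed 4-fold. In 633 of the 643 the 3 blue and 3 dark arrays did not overlap, against 14.5% of all probe sets tested. A gene name was available for 266 of the 643, of which 145 were higher and 121 lower, so that 377 of the called probe sets are not named here. A fit on the 6 arrays alone called 406, of which 387 were among the 643 in the same direction.

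**Figure D1:**
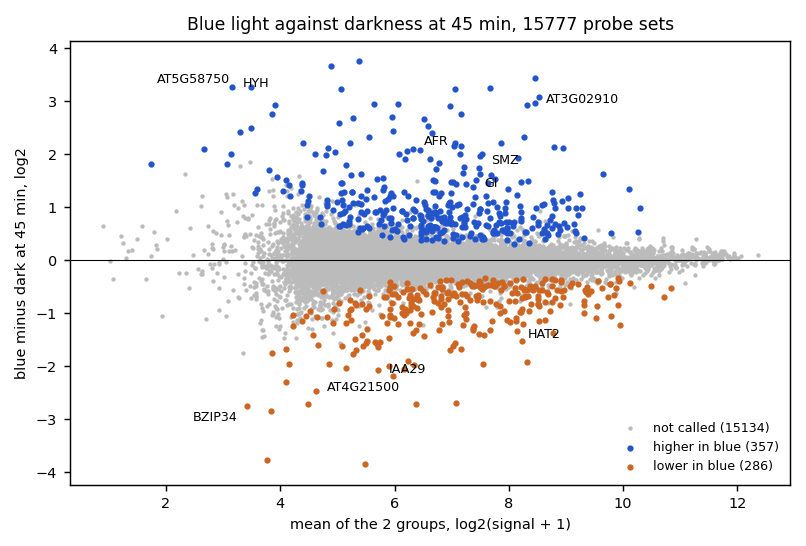
Change in blue light against darkness at 45 min (y axis, log2) by mean level (x axis, log2 of signal + 1) for 15777 probe sets, each 1 point. The 357 called higher are blue, the 286 called lower are orange and the rest are grey; the largest called changes reach past 3 in both directions, and many called probe sets lie at low or middle signals.

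The labelled tissue and the arrays were checked first. The summed signal of 7 photosynthetic genes (RCA, SBPASE, PRK, PSAN, PSAE-1, LHCB4.1 and LHCB4.2) lay between 1682 and 2364 in blue light and between 1513 and 2453 in darkness. The root hair genes EXPA7 and EXPA18 summed to between 14.4 and 64.0 in blue light and to between 24.6 and 57.9 in darkness, and the pollen genes AGL104 and AGL66 to between 18.8 and 39.7 over the 6 arrays. OLEO3, the only seed marker that could be named, had clear signal in all arrays. It was 387.8, 363.3 and 319.4 in blue light and 420.2, 379 and 362.3 in darkness. None of these genes that passed the filter was called at 45 min, and the groups overlapped in each sum. No epidermal or root stele marker could be named. Pearson's r over the 15777 probe sets tested, which are not independent replicates, was 0.957 to 0.971 among the blue arrays, 0.958 to 0.970 among the dark arrays and 0.943 to 0.964 between the groups.

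Of the light signalling lists, few members could be named, and those that could rose or stayed below the threshold. HYH, the bZIP homologue of HY5, had signals of 29, 26.6 and 22.3 in blue light and of 3.3, 1.4 and 1.1 in darkness. All blue arrays lay above all dark arrays, but both groups were near or below the filter level, the 40th percentile of an array (27.2 to 28.4 here), so that the size of the change (3.27 ± 0.38 SE, adjusted p = 3.60e-08) is uncertain. AT3G44450, which is on the cryptochrome list by its locus, rose by 1.30 ± 0.26 (SE, adjusted p = 8.30e-04), from 12.8, 6.7 and 17.5 in darkness to 26, 39.3 and 26.2 in blue light. Its call rests on the spread shared by all groups, since the adjusted p was 0.133 in a fit on the 6 arrays alone. The third named member, AT3G52740, was at or near the floor in both groups, between 0.7 and 1.5 in darkness and between 0.9 and 2.3 in blue light, with a change of 0.46 (adjusted p = 0.906).

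AFR, an F-box gene that acts in phytochrome A signalling, showed one of the clearest rises against darkness. Its levels in red and far-red light are given below. Its signals were 157.2, 166.1 and 170.0 in blue light against 38.4, 45.2 and 29.8 in darkness, 4.32-fold on the log2(signal + 1) scale (log2 2.11 ± 0.16 SE, adjusted p = 1.10e-12). The groups lay far apart, and the 3 blue arrays agreed closely. FHL, which helps to carry phytochrome A into the nucleus, had 82.1, 76.7 and 60.3 in blue light against 99.9, 93.9 and 109.4 in darkness. All blue arrays were below all dark arrays, yet the change of -0.47 ± 0.15 (SE) had an adjusted p of 0.0672. Blocked by replicate number its adjusted p was 0.0425, and after quantile normalization 0.0285.

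Of the clock, GI, a nuclear protein that links the clock to flowering, was 255.4, 266.6 and 262.4 in blue light and 68.5, 138.1 and 105.7 in darkness. The blue arrays were tightly grouped and the dark arrays varied 2-fold among themselves, without overlap. The rise was 1.38 ± 0.17 (SE, adjusted p = 7.87e-08). COR27, a gene of cold and clock regulation, did not differ detectably at this harvest, with group means of 61.5 ± 10.1 (SD) in blue light and 64.6 ± 14.4 in darkness. SMZ and SNZ, AP2-type repressors of flowering, rose together. SMZ reached 435.8, 333.5 and 296.4 in blue light from 108.9, 78.1 and 83.2 in darkness, and SNZ reached 64.0, 63.9 and 50.4 from 13.6, 23.7 and 7.6. The changes were 1.96 ± 0.14 (SE, adjusted p = 1.12e-13) for SMZ and 2.04 ± 0.31 (SE, adjusted p = 9.44e-06) for SNZ, and in neither gene did the groups overlap.

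Of 9 tested members of the flavonoid and phenylpropanoid list (11 of its 44 genes were named), 2 rose and none fell, where 2.26% of all probe sets rose and 1.81% fell. The median change was -0.02 against 0.0047 over all probe sets tested. This list, like the others here, was chosen with earlier results of these data known, so its count is a description only. UGT78D2, which adds glucose to flavonols and anthocyanidins, was 143.6, 146.7 and 113.7 in blue light and 34.5, 36.2 and 27.1 in darkness. The rise of 2.01 ± 0.15 (SE, adjusted p = 1.60e-13) left the lowest blue array more than 3 times as high as the highest dark one. CCR2, a cinnamoyl-CoA reductase of lignin synthesis, rose by 2.01 ± 0.40 (SE, adjusted p = 7.50e-04) from signals of 2.1 to 4.4 to signals of 12.8 to 18.8, all below the filter level, and its adjusted p was 0.0907 on the 6 arrays alone. DFR, a reductase of anthocyanin synthesis, had a change of -0.10 (adjusted p = 0.958) and CHIL, a chalcone isomerase-like protein, one of -0.06 (adjusted p = 0.991), so neither was called.

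Of 11 tested auxin response genes (17 of 161 listed genes were named), 6 fell and none rose, where 1.81% of all probe sets fell and 2.26% rose. The median change was -0.69. Because the members and lists were chosen with earlier results of these data known, this count describes the list and is no independent support. IAA29, an Aux/IAA repressor, dropped from 90.4, 118.8 and 108.3 in darkness to 25, 23 and 25.2 in blue light, a change of -2.06 ± 0.18 (SE, adjusted p = 1.38e-11). AT2G18010, SAUR10 in RefSeq and a member of the small auxin up RNA family linked to cell expansion, dropped from 64.7, 75.2 and 87.0 to 23.4, 25.9 and 22.3 (-1.62 ± 0.19 SE, adjusted p = 6.81e-08). In both genes the dark arrays were each more than 2 times as high as any blue array. AT3G53250, SAUR57 of the same family, had 17.1, 35.1 and 23.3 in darkness and 8.6, 8.6 and 3.6 in blue light, a change of -1.74 ± 0.28 (SE, adjusted p = 3.02e-05) between low signals, which had an adjusted p of 0.0839 on the 6 arrays alone.

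The enzymes GH3.3 and WES1, which join amino acids to auxin and so lower its free pool, fell as well. GH3.3 was 103.0, 106.1 and 137.7 in blue light and 312.4, 259.8 and 356.0 in darkness (-1.41 ± 0.23 SE, adjusted p = 3.51e-05). WES1 was 673.1, 670.2 and 852.8 in blue light and 1051.2, 1041.8 and 1380.3 in darkness (-0.66 ± 0.14 SE, adjusted p = 2.18e-03). In both genes replicate 3 was the highest array of its group, and the groups did not overlap. HAT2, an auxin-induced homeodomain-leucine zipper factor, was 181.0, 189.3 and 161.5 in blue light and 416.9, 444.2 and 477.6 in darkness (-1.33 ± 0.14 SE, adjusted p = 5.34e-09). The 5 members that were not called were IAA18 (-0.11), IAA20 (-0.69, adjusted p = 0.607), IAA34 (0.03), YUC2 (-0.16), an enzyme of auxin synthesis, and GH3.17 (-0.45, adjusted p = 0.0975, or 0.0159 when blocked by replicate number).

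Of the 4 tested genes on a list linked to PIF factors and shade, IAA29 and HAT2 fell and FHL missed the threshold. Over all probe sets 1.81% fell and 2.26% rose, and IAA29 and HAT2 are also on the auxin list. BIM1, a helix-loop-helix factor of brassinosteroid signalling, rose by 0.51 ± 0.14 (SE, adjusted p = 0.0292), from 158.2, 141.7 and 107.9 to 190.1, 207.5 and 178.2. That call was lost without blue replicate 1 (adjusted p = 0.0807) or 2 (0.161), without dark replicate 2 (0.0527) or 3 (0.302), and on the 6 arrays alone (0.169). EXO, a brassinosteroid-induced growth gene, was 398.0, 488.1 and 326.7 in blue light and 699.0, 842.6 and 612.5 in darkness. Its groups did not overlap and the change was -0.83 ± 0.27 (SE), but the adjusted p was 0.0739. The replicates of the 2 groups varied together, and blocked by replicate number the adjusted p was 0.00154. The gibberellin receptors GID1A (-0.37, adjusted p = 0.249), GID1B (-0.01) and GID1C (0.05) and the ethylene factor EIN3 (0.00) were not called.

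**Figure D2:**
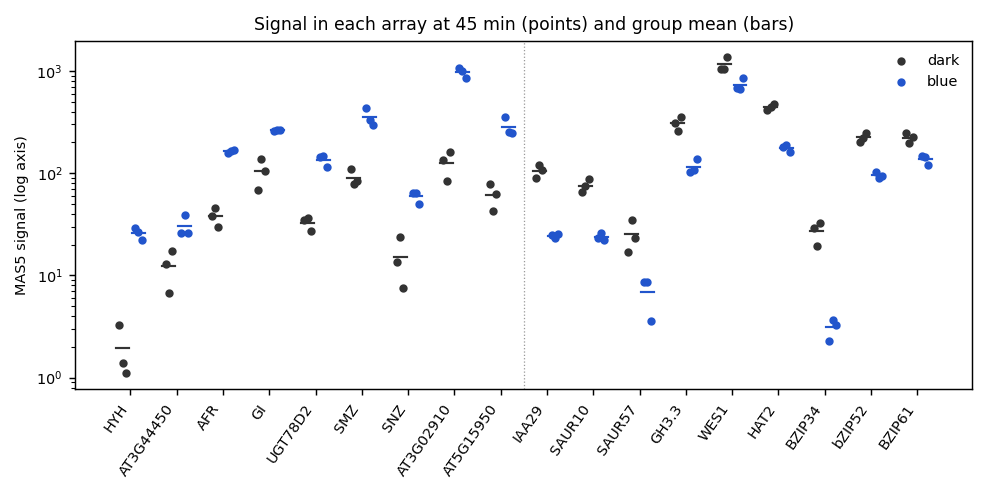
MAS5 signal (log axis) of 18 genes in each dark (black) and blue (blue) array at 45 min; points are arrays and bars are means. Left of the dotted line are called rises, right of it called falls; in each of these genes the dark and blue arrays do not overlap.

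Among bZIP factors, a family that binds ACGT-type promoter elements, 5 of 16 tested members were called, against 4.08% of all probe sets. HYH rose and 4 fell, namely BZIP34, bZIP52, BZIP61 and AT1G06070, with a list median of -0.13. As with the other lists, the choice was made with earlier results of these data known, so the count is a description only. BZIP34 was 2.3, 3.7 and 3.3 in blue light and 28.8, 19.5 and 32.6 in darkness (-2.76 ± 0.50 SE, adjusted p = 1.63e-04), so that its blue signals lay near the floor and the size of the fall is uncertain. The closely related BZIP61 was measured well above the filter level, with 148.6, 144.4 and 120.2 against 245.9, 196.8 and 223.5 (-0.69 ± 0.12 SE, adjusted p = 1.83e-04). The fall of bZIP52 was the firmest of the 4, from 203.8, 221.5 and 246.4 to 101.6, 89.9 and 94.6 (-1.22 ± 0.12 SE, adjusted p = 1.68e-09). AT1G06070 changed by -0.53 (adjusted p = 3.69e-03), with blue arrays from 55.3 to 73.4 and dark arrays from 90.3 to 95.2, a call lost without blue replicate 2 (adjusted p = 0.0667) and on the 6 arrays alone (0.117). Among 6 tested bHLH factors bHLH34 rose by 0.79 (adjusted p = 0.0400), and the other 5 were not called. Leaving out any 1 of blue replicates 1 to 3 or of dark replicates 1 and 3 ended the call of bHLH34 (adjusted p between 0.0713 and 0.207), as did a fit on the 6 arrays alone (0.0588).

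Of 24 tested cell wall genes for enlargement (32 of 95 listed genes were named), 1 rose and 2 fell, against 2.26% and 1.81% of all probe sets, with a median of -0.14. XTH33, a xyloglucan endotransglucosylase, was 77.0, 86.2 and 78.4 in blue light and 140.2, 174.0 and 114.1 in darkness (-0.80 ± 0.18 SE, adjusted p = 3.51e-03). EXLA2, an expansin-like protein, was 104.7, 108.9 and 103.8 in blue light and 186.1, 221.6 and 151.4 in darkness (-0.79 ± 0.19 SE, adjusted p = 4.84e-03). In both the groups did not overlap, and both calls were lost without dark replicate 2, the highest dark array (adjusted p = 0.0661 for XTH33 and 0.0712 for EXLA2). XTH32, of the same enzyme family as XTH33, went the other way, from 83.1, 122.5 and 50.1 to 217.2, 188.4 and 121.1, where the lowest blue array fell below the highest dark one. Its rise of 1.08 ± 0.25 (SE, adjusted p = 3.51e-03) lost the threshold without blue replicate 1 (adjusted p = 0.0556) or dark replicate 3 (0.104), and on the 6 arrays alone (0.135).

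Genes of the photosynthetic machinery were not called at 45 min. Over all probe sets tested 4.08% were called, so lists of these sizes would hold few or no calls by that share. None of 28 tested members of the photosystem, antenna and ATP synthase list passed the threshold: the 9 nuclear members changed by -0.35 to 0.38 with a median of 0.09, and the 19 plastid members by -0.21 to 0.14 with a median of -0.05. RCA, the activase of Rubisco, was 480.4, 518.6 and 404.0 in blue light and 516.2, 569.7 and 358.1 in darkness, and the groups overlapped fully. SBPASE, of the Calvin cycle, changed by -0.23 (adjusted p = 0.927), and PRK and TPI were not called either. The same held for 9 genes of chlorophyll and carotenoid synthesis (median -0.18), among them PORB, which makes chlorophyllide in the light (-0.63, adjusted p = 0.425, or 0.0218 when blocked by replicate number). Of 5 photoprotection genes none was called: LIL3:1 changed by -0.28, LIL3:2 by -0.24, SAPX by -0.05, VTC4 by -0.03 and TAPX, the thylakoid ascorbate peroxidase, by -0.67 (adjusted p = 0.215, or 0.0288 with the replicate number as a block and 0.0235 without blue replicate 2).

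In the remaining lists 2 genes were called. Of all probe sets tested 4.08% were called (2.26% higher and 1.81% lower), so lists of these sizes would hold few or no calls by that share. None of 9 small heat shock proteins and chaperones was called (median 0.03), none of 12 genes of sugar starvation and leucine breakdown (-0.06), none of 13 sugar transporters (0.00) and none of SDP1, AIM1 and ICL, which break down seed oil. Of 13 genes that respond fast to wounding and touch, WRKY22 fell and WRKY6 rose, both WRKY transcription factors. WRKY22 was 28.1, 30.7 and 34.9 in blue light and 65.7, 55.6 and 48.0 in darkness (-0.83 ± 0.17 SE, adjusted p = 1.34e-03), and its adjusted p was 0.0501 on the 6 arrays alone. WRKY6 rose by 0.92 (adjusted p = 0.0417), and its call was lost without blue replicate 1 (adjusted p = 0.113) or 3 (0.297) and without dark replicate 1 (0.0734), 2 (0.188) or 3 (0.0787), and on the 6 arrays alone (0.0605). PHV, the other tested homeodomain gene beside HAT2, changed by 0.03. No member of the phototropin, cytokinin, MYB, B-box and plastid sigma factor lists could be tested.

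**Figure D3:**
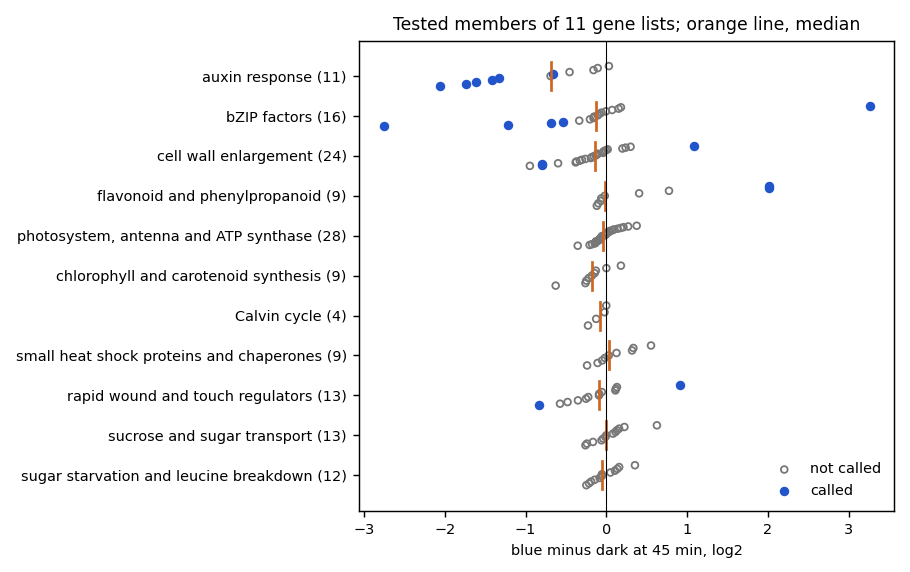
Change in blue light against darkness at 45 min (x axis, log2) for the tested members of 11 gene lists, with the number of members in brackets. Filled points are called and open points are not; the orange line is the median, which is -0.69 for auxin response and between -0.18 and 0.03 for the other lists.

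Outside the lists, the largest named rises among probe sets with a group mean of at least 50 belonged to genes that are known here only by locus. AT3G02910 was 1064.2, 987.7 and 857.8 in blue light and 135.5, 83.6 and 161.5 in darkness, 7.84-fold on the log2(signal + 1) scale (log2 2.97 ± 0.17 SE, adjusted p = 9.28e-17). AT1G13670 rose by 2.21 ± 0.17 (SE, adjusted p = 6.62e-13), from 18.7, 15.7 and 14.8 to 83.1, 79.8 and 74.3, with very little spread in either group. AT5G15950 rose by 2.22 ± 0.21 (SE, adjusted p = 1.67e-10), from 78.8, 42.8 and 62.3 to 350.4, 255.3 and 246.5. None of the 3 had overlapping groups. AT1G06000 (2.16), AT1G48100 (2.13) and AT4G17670 (1.76) rose as well. AT5G58750 had a larger log2 change of 3.28 ± 0.39 (SE, adjusted p = 5.47e-08) between low signals, from 1.4, 3.6 and 2.9 to 35.7, 36.3 and 27.7.

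Among named probe sets with a group mean of at least 50, the largest falls were those of AT1G77200 (-2.71 ± 0.46 SE, adjusted p = 6.98e-05) and AT4G21500 (-2.47 ± 0.45 SE, adjusted p = 2.36e-04). At lower signals BZIP34 and AT5G50335 fell further, the latter by -3.78 ± 0.78 (SE, adjusted p = 1.07e-03), from 42.5, 17 and 72.3 in darkness to 8.3, 0.2 and 1.0 in blue light, where 1 dark and all blue arrays lay below the filter level. AT1G77200 was 4.7, 14.6 and 5.3 in blue light and 46, 52 and 62.5 in darkness. AT4G21500 was 8.6, 10.7 and 8.8 in blue light and 50.9, 46 and 75 in darkness. In both the blue signals were below the filter level and clear of the dark ones. AT4G36010 fell from between 137.7 and 157.4 to between 32.9 and 35.7 (-2.05 ± 0.18 SE, adjusted p = 3.35e-11), AT1G54120 from between 150.0 and 172.3 to between 32.4 and 44.7 (-1.98 ± 0.15 SE, adjusted p = 4.67e-13), and AT5G02580 from between 214.5 and 235.5 to between 68.9 and 84.5 (-1.57 ± 0.19 SE, adjusted p = 8.03e-08). These 3 groups of dark arrays were each at least 2 times as high as the blue ones throughout.

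Blue light was next set directly against red and far-red light of the same photon fluence rate and duration, to see which genes responded differently by colour. Against red light 81 probe sets were called (0.513% of those tested), 11 higher (0.0697%) and 70 lower (0.444%) in blue light. Against far-red light 69 were called (0.437%), 16 higher (0.101%) and 53 lower (0.336%). At an unadjusted p under 0.05 the split was more even, with 563 higher and 570 lower against red light and 455 higher and 600 lower against far-red light. Blocked by replicate number the counts were 144 (31 higher) and 127 (36 higher). On the arrays of each comparison alone they were 31 and 17, and the red count was 47 without red replicate 2 and 53 without red replicate 3. Because these contrasts share the blue arrays with the comparison against darkness, levels are given side by side.

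SAUR10 was lower in blue light than in red and far-red light. In red light its signals were 58.3, 54.0 and 60.9, and in far-red light 71.8, 49.1 and 70.1, against 23.4, 25.9 and 22.3 in blue light. White light gave 39.3, 31 and 33.9, which was not called apart from blue light (adjusted p = 0.997). The differences were -1.24 ± 0.19 (SE, adjusted p = 1.91e-04) from red and -1.36 ± 0.19 (SE, adjusted p = 4.54e-05) from far-red light, and neither call was lost in any alternative run. In HAT2 the order was darkness (446 ± 30.4 SD), red (314 ± 37.6), far-red (303 ± 44.7), blue (177 ± 14.3) and white (176 ± 9.14), where blue and white light were not called apart and red and far-red light lay within each other's SD. Blue light was below red by -0.82 ± 0.14 (SE, adjusted p = 1.19e-03) and below far-red by -0.76 ± 0.14 (SE, adjusted p = 2.61e-03); the latter adjusted p was 0.0900 on the arrays of the comparison alone. By contrast IAA29 was low in each colour, at 30.3 ± 3.32 (SD) in red, 30.3 ± 4.85 in far-red and 24.4 ± 1.22 in blue light, and blue against red light was not called (-0.30, adjusted p = 0.789). For AFR, GI, HYH and AT3G44450 blue light was not called apart from red or far-red light (limma, adjusted p 0.844 to 0.988). In red, far-red and blue light AFR had means of 151, 182 and 164, against 37.8 in darkness. GI had 228, 238 and 261 against 104, and AT3G44450 24.7, 27.7 and 30.5 against 12.3. HYH arrays spanned 11.3 to 23.3, 16.8 to 25.1 and 22.3 to 29, against 1.1 to 3.3. A missed threshold does not show equal levels.

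AT4G21500 was 49.1, 45.4 and 59.9 in far-red light and 45.6, 30.7 and 31.5 in red light, while all blue arrays were at or below 10.7. The difference from far-red light was -2.34 ± 0.45 (SE, adjusted p = 3.77e-03) and that from red light -1.82 ± 0.45 (SE, adjusted p = 0.0554), which reached 0.0310 with the replicate number as a block, 0.0494 after quantile normalization and 0.0435 on the arrays of the comparison alone. BZIP61 stood at 206 ± 30.1 (SD) in red, 202 ± 19.6 in far-red and 138 ± 15.3 in blue light. It differed by -0.57 (adjusted p = 0.0145) from red and by -0.55 (adjusted p = 0.0232) from far-red light. Both BZIP61 calls were lost without blue replicate 3 (adjusted p = 0.169 and 0.230), the first without red replicate 2 (0.206), the second without far-red replicate 2 (0.162) or 3 (0.148). BZIP34, at 12.8 ± 1.80 in red and 14.4 ± 2.01 in far-red against 3.10 ± 0.721 in blue light, was not called in either (adjusted p = 0.130 and 0.0794); the second was 0.0454 blocked by replicate number, and 0.0417 (no intensity trend) to 0.417 (arrays of the comparison alone) over the alternatives.

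GAT1_2.1, named for a glutamine amidotransferase, was 513.4, 441.2 and 566.1 in red and 266.0, 245.2 and 296.5 in blue light, a difference of -0.91 ± 0.21 (SE, adjusted p = 0.0245). That call was lost without blue replicate 1 (adjusted p = 0.0966) or 2 (0.143) and without red replicate 1 (0.106) or 3 (0.157). AT1G54120 was 67.7 ± 11.8 (SD) in red and 66.1 ± 9.08 in far-red against 39.8 ± 6.50 in blue light. Its differences of -0.75 (adjusted p = 4.83e-03) and -0.72 (adjusted p = 7.92e-03) were lost without blue replicate 2 (0.0969 and 0.156), the first without red replicate 2 (0.102), the second without far-red replicate 2 (0.128) or 3 (0.0543). AT5G44680 was lower in blue light than in red (-0.84, adjusted p = 0.0179) and far-red (-0.94, adjusted p = 4.87e-03), both lost without blue replicate 3 (0.224 and 0.104), the first without red replicate 1 (0.126) or 3 (0.127) and the second without far-red replicate 1 (0.0509) or 3 (0.0564).

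In other genes red or far-red signals stood apart from those of both blue light and darkness. AT1G14200 was 285.1, 286.7 and 318.1 in red light, but 141.6, 149.0 and 169.1 in blue light and 129.1, 126.2 and 148.3 in darkness, so blue was below red by -0.95 ± 0.13 (SE, adjusted p = 1.87e-05) with no call against darkness (adjusted p = 0.683). AT3G14200 also stood apart in red light, at 157.3, 137.9 and 177.9 in red, 62.1, 83.4 and 46.5 in blue light and 35.3, 31.5 and 60.8 in darkness (-1.32 against red, adjusted p = 6.33e-03). That call was lost without blue replicate 3 (0.103) or red replicate 3 (0.0658). Its blue mean lay between darkness and red, and the change of 0.60 against darkness was not called (adjusted p = 0.339). AT1G04000 was 19.5, 24.5 and 24.6 in far-red light, below both blue light (46, 58.1 and 75.8) and darkness (51.2, 44.4 and 35.4), and blue exceeded far-red by 1.33 ± 0.21 (SE, adjusted p = 1.91e-04). That last call had an adjusted p of 0.0821 on the arrays of the comparison alone.

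Few named genes were higher in blue light than in the other colours. AT4G34630 was 235.0, 248.8 and 240.3 in blue, 170.7, 200.5 and 181.6 in red and 173.6, 180.7 and 154.8 in far-red light, with 109.1 to 155.7 in darkness. It exceeded far-red by 0.51 ± 0.10 (SE, adjusted p = 2.64e-03), which was lost without far-red replicate 3 (0.0546), and red by 0.39 (adjusted p = 0.0457), which was lost without any 1 of blue replicates 1 to 3 or red replicates 1 and 3 (0.102 to 0.338). AT1G06000 exceeded red by 0.64 (adjusted p = 0.0335), a call lost without any 1 of the 6 arrays (0.0718 to 0.160). AT2G44940 exceeded far-red by 0.67 (adjusted p = 0.0114), lost without blue replicate 1 (0.0952) or 3 (0.0779) or far-red replicate 1 (0.0591) or 2 (0.144). On the arrays of the comparison alone, none of the calls between colours given above for BZIP61, AT1G54120, AT5G44680, AT4G34630 and AT2G44940 was kept (adjusted p 0.119 to 0.337).

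**Figure D4:**
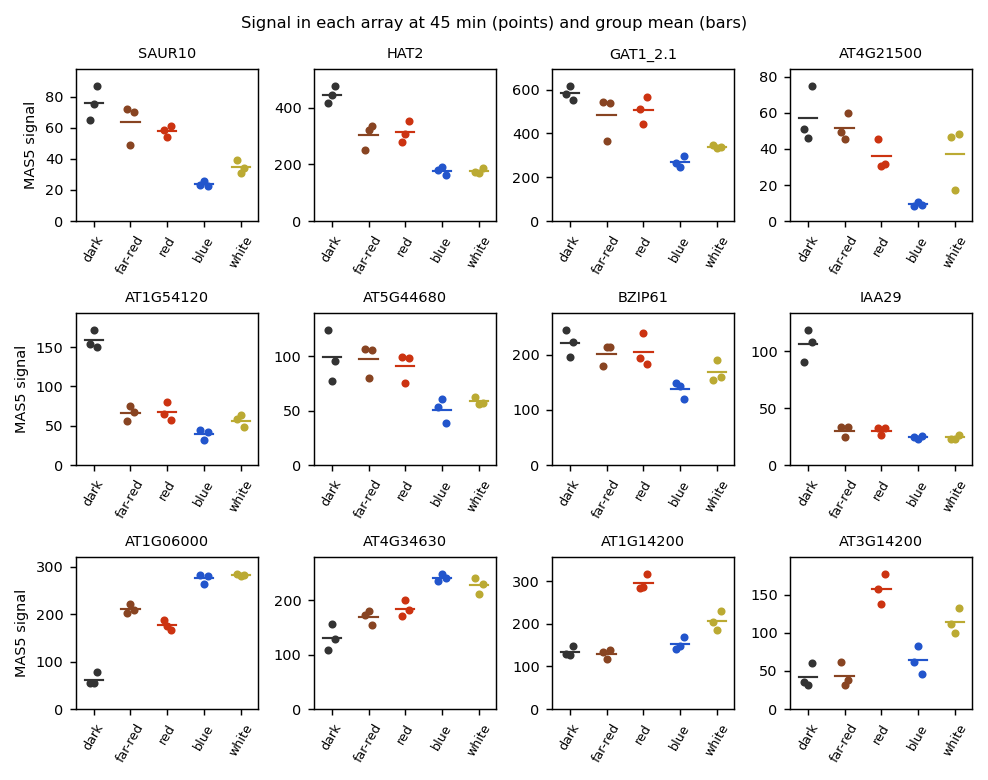
MAS5 signal (y axis, from 0) of 12 genes in each array at 45 min in darkness, far-red, red, blue and white light; points are arrays and bars are means. SAUR10 and AT4G21500 are lowest in blue light, IAA29 is low in every light, and AT1G14200 and AT3G14200 are highest in red light.

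White light of the same photon fluence rate differed from blue light in 1 probe set by limma (0.00634%), with 704 at an unadjusted p under 0.05. It has no gene name here and was 223 ± 19.4 (SD) in blue light, 390 ± 22.3 in white light and 137 in darkness (-0.81, adjusted p = 2.86e-03). The count was 4 without blue replicate 1 and 0 without blue replicate 3 or white replicate 3. A missed threshold does not show that blue and white light act alike: AT4G21500, at 8.6 to 10.7 in blue light, spanned 17.1 to 48.3 in white light.

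The later harvest shows which of the early changes were still present, with no array shared between the 45 min and 4 h comparisons. At 4 h blue light differed from darkness in 4169 probe sets (26.4%). Of the 357 probe sets higher at 45 min, 252 (70.6%, or 12.4% of those higher at 4 h) were again higher at 4 h, 14 were lower and 91 were not called. Of the 286 lower at 45 min, 221 (77.3%, or 10.3% of those lower at 4 h) were again lower, 4 were higher and 61 were not called. The difference between the harvests was itself called for 1798 probe sets (11.4%), 930 upward (5.89%) and 868 downward (5.5%). Among the 357 it was called for 137, of which 79 had gone further up and 58 back. Among the 286 it was called for 74, of which 46 had gone further down and 28 back. This difference contains the same 45 min arrays by which the 357 and 286 were picked. That choice favours differences that go back, so the counts are a description and no independent sign of passing changes. The dark groups themselves differed between 4 h and 45 min in 5 probe sets (0.0317%), none of them named, with 1432 at an unadjusted p under 0.05.

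Some rises were smaller and no longer called at 4 h. AT5G58750 was 2.5, 3.6 and 2.8 in blue light at 4 h, back among the dark signals (2.6, 8.6 and 2.4). AT5G15950 was 94.3, 82.7 and 71.7 in blue light and 75.3, 73.3 and 53.4 in darkness, with overlapping groups. AT4G17670 was 94.1, 90.6 and 100.7 in blue light and 83.9, 76.9 and 71.7 in darkness, so that its blue arrays still lay above all dark ones. For none of these 3 genes was the 4 h effect called, and for each the difference between harvests was. BIM1 was at -0.66 ± 0.14 (SE, adjusted p = 4.02e-04) at 4 h, after a rise at 45 min whose call was lost without single arrays (above). Among the falls, AT1G77200 (39.3 ± 15.8 SD in blue light, 42 ± 10.5 in darkness), AT4G21500 (41.2 ± 7.99 and 42.7 ± 11.1) and SAUR57 (27.4 ± 3.37 and 20.2 ± 3.42) were not called at 4 h. AT1G54120 had partly returned, with an effect of -0.62 (adjusted p = 1.43e-03).

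Other changes were held or had grown, and for the 4 genes named next the difference between harvests was not called. The 4 h effect was 3.14 for AT3G02910, 1.38 for GI, 2.03 for SMZ and 2.19 for AT1G13670. GH3.3 had dropped to 35.3, 37.3 and 43 against 389.3, 329.3 and 393.9 in darkness, an effect of -3.23 ± 0.23 (SE, adjusted p = 2.70e-14). WES1 (-1.45), BZIP61 (-1.64), XTH33 (-2.04) and AT5G02580 (-2.96) were also further down, as was GAT1_2.1 (-2.04, adjusted p of its difference between harvests 0.0333, and 0.0532 to 0.0812 without any 1 of blue or dark replicates 1 and 3 at 45 min, blue replicates 1 and 2 or dark replicates 1 and 3 at 4 h), and UGT78D2 (3.08), AT1G06000 (3.03) and AT1G48100 (4.27) further up. XTH32 had climbed to 1119.0, 1147.3 and 1148.2 against 97.1, 87.9 and 51.7 in darkness. Genes not called at 45 min joined: AT3G52740 reached 39.6, 38.4 and 31.3 in blue light against 1.1 to 2.1 in darkness, FHL was down by -1.19 and COR27 by -2.01, and 8 of the 9 nuclear photosystem genes were higher (median 1.45), as was 1 of the 19 plastid ones (median 0.03), where 12.8% of all probe sets were higher at 4 h. For 6 of the nuclear and none of the plastid genes the difference between the harvests was called, against 11.4% of all probe sets; that of LHCB4.2 (adjusted p = 0.0484) was lost without blue replicate 1 or 3 or dark replicate 1 or 2 at 45 min, or without any blue replicate or dark replicate 1 or 3 at 4 h (0.0534 to 0.178).

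**Figure D5:**
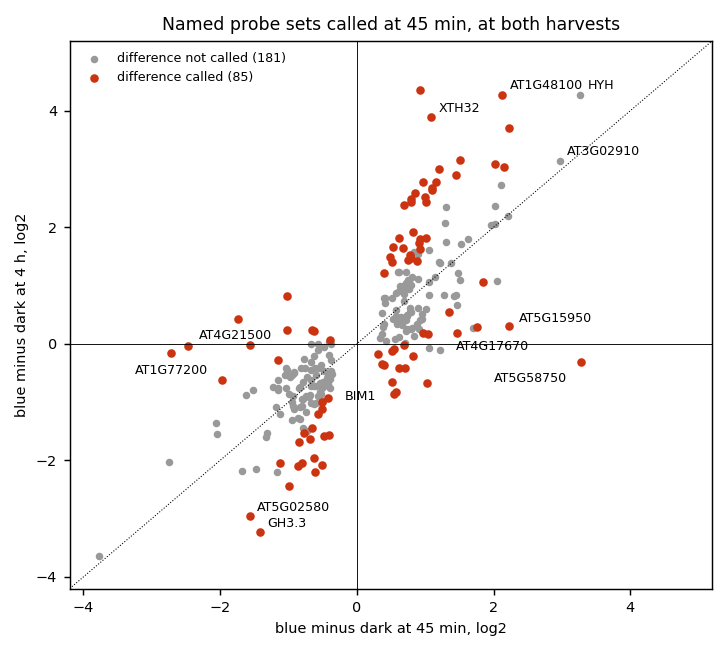
Effect of blue light against darkness at 45 min (x axis, log2) and at 4 h (y axis, log2) for the 266 named probe sets called at 45 min; the dotted line marks equal effects. Red points are the 85 whose difference between harvests was called; AT5G58750, AT5G15950 and AT4G17670 lie near 0 at 4 h, and XTH32 and AT1G48100 lie far above the line.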

How the data were processed

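RNA was hybridised to Affymetrix ATH1 arrays, 1 array a sample. The deposited values are intensity on a linear scale, and the submitters' processing notes name MAS5 (its version is not given in the sources used here). The trimmed mean of the 6 arrays at 45 min lay between 98.97 and 99.44, and 5 to 15 values an array were 0. No detection calls were used, so low signals are uncertain.

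Tests were run on log2(signal + 1), a pseudocount that makes changes between low signals look smaller. A probe set was tested where at least 3 of the 48 arrays exceeded their own 40th percentile (15777 of 22746, without 64 control probe sets). The 16 group means were fitted over all 48 arrays with limma 3.58.1 in R 4.3.3 (lmFit, eBayes with an intensity trend, 32 residual degrees of freedom), in 7 contrasts, with Benjamini-Hochberg adjustment within each. Tables and figures used data.table (version 1.17.8), pandas 2.3.3, numpy 2.4.6 and matplotlib 3.10.9 in Python 3.11.15. The test was checked on simulated data.

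Groups and replicate numbers came from the titles. Same-numbered blue and dark arrays at 45 min deviated together from their group means (correlations 0.178, 0.181 and 0.254, against a median of -0.118 between different numbers), as did those of blue with red and far-red light, so a fit with the number as a block is given where it changes a call. Deviations sum to 0 within a group, so positive values for same numbers force those between different numbers below 0. The median of -0.118 is therefore no independent reference. Other alternatives were a pseudocount of 16, no filter, quantile normalization, no trend, the arrays of a comparison alone, leaving out 2 arrays with conflicting labels (dark 4 h replicate 1, whose germination light is given as green, and a UV-A/B array whose description gives darkness; the title of far-red 45 min replicate 2 also carries the number 1, and its last number was used), and leaving out each array in turn.

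Probe sets were named through the platform's gene annotation and RefSeq symbols (13513 of 22746 have 1 gene, 503 several, 8730 are not listed, and 13484 matched). No coordinates or sequences are used here. Named genes are the 15 largest rises and 12 largest falls against darkness among called probe sets of 1 gene without overlap and with a higher group mean of at least 50, up to 4 called members with the largest change of each of 33 gene lists and all tested members of lists of 5 or fewer, 5 rises and 5 falls in the other contrasts, HYH and AT3G52740; the text gives a part of them. Uncalled members of longer lists, AT1G06070 and AT5G50335 were added after they were seen. The same holds for the values between colours of AT1G54120, AT4G21500, HAT2, BZIP61, BZIP34, IAA29, AFR, GI, HYH and AT3G44450. Symbols on the lists that stood for another gene in these data (a chitinase and a formate dehydrogenase) were removed. The members and lists were chosen with earlier results of these data known.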

Additional observations from a re-analysis of the deposited data

Results flagged for a closer look

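For 36 genes named in the text, the effect of blue light against darkness differed between the 4 h and the 45 min harvest by a test of the difference itself (limma, Benjamini-Hochberg, adjusted p under 0.05). Values are the 4 h effect minus the 45 min effect on the log2 scale, each over 3 arrays in each of 4 groups. For genes called at 45 min, the same 45 min arrays enter the call and the difference, which favours differences back toward darkness. The largest difference among those that had risen at 45 min was -3.59 ± 0.55 (SE, adjusted p = 8.68e-06) for AT5G58750, followed by -1.91 for AT5G15950, -1.46 for AT4G17670, -1.17 for BIM1, -1.03 for AT1G27200 and -0.80 for AT1G61890. Genes that had fallen and fell further were GH3.3 (-1.82), AT5G02580 (-1.40), XTH33 (-1.24), BZIP61 (-0.95), GAT1_2.1 (-0.92) and WES1 (-0.79).

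Genes that had fallen at 45 min and were nearer to darkness at 4 h were AT1G77200 (2.56), AT4G21500 (2.43), AT3G53250 (2.17) and AT1G54120 (1.36). Genes that had risen and rose further were XTH32 (2.80), AT1G48100 (2.14), UGT78D2 (1.07), AT1G06000 (0.87) and AT2G44940 (0.67). Of those not called at 45 min, OLEO3, an oil body protein of seeds, gave -2.25, COR27 -1.95, ICL -1.04, FHL -0.71 and EIN3 -0.62. THI2.2, a thionin, gave 5.09 (at 45 min it was called only on the 6 arrays alone, adjusted p = 0.0431, and when blocked by replicate number, 0.00924). CHIL gave 4.50, AT3G52740 3.40, PSAE-1 2.71, PSAN and RCA 1.98 each, SBPASE 1.68, LHCB4.2 1.08, SAPX 0.71 and GH3.17 0.69.

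Of these calls 9 were lost without single arrays. GAT1_2.1 lost its call without any 1 of blue or dark replicates 1 and 3 at 45 min, blue replicates 1 and 2 or dark replicates 1 and 3 at 4 h (adjusted p 0.0532 to 0.0812). SBPASE lost it without blue replicate 3 or dark replicate 1 or 2 at 45 min, or without blue replicate 2 or dark replicate 1 or 3 at 4 h (0.0505 to 0.0934). FHL lost it without blue replicate 1 or dark replicate 2 at 45 min, or without blue replicate 2 or dark replicate 1 at 4 h (0.0548 to 0.0730). AT2G44940 lost it without blue replicate 2 or dark replicate 3 at 45 min, or without blue replicate 3 or dark replicate 2 at 4 h (0.0535 to 0.0740). GH3.17 lost it without blue replicate 2 or dark replicate 3 at 45 min, or without blue replicate 2 or 3 or dark replicate 2 at 4 h (0.0523 to 0.110). SAPX lost it without blue replicate 2 or dark replicate 1 or 2 at 45 min, or without blue replicate 1 or 3 or dark replicate 3 at 4 h (0.0566 to 0.0923). ICL lost it without blue replicate 1 or 2 or dark replicate 1 or 3 at 45 min, or without blue replicate 1 or 3 or dark replicate 1 or 2 at 4 h (0.0512 to 0.135). LHCB4.2 lost it without blue replicate 1 or 3 or dark replicate 1 or 2 at 45 min, or without any blue replicate or dark replicate 1 or 3 at 4 h (0.0534 to 0.178). AT1G27200 lost it without dark replicate 2 at 45 min (0.0665). Without the 2 arrays with conflicting labels the adjusted p was 0.0768 for GAT1_2.1, 0.0736 for FHL, 0.0598 for SBPASE, 0.0546 for GH3.17, 0.0676 for ICL and 0.111 for LHCB4.2, and on the arrays of the comparison alone it was 0.0823 for AT3G52740.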

How the results depend on the processing

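The count of 643 for blue light against darkness at 45 min was 636 with a pseudocount of 16, 600 with no filter, 662 after quantile normalization and 869 with the replicate block, and 406 on the arrays of the comparison alone. Leaving out 1 array at a time gave 493 to 574 for this comparison, 47 to 61 against red light, 46 to 58 against far-red light, 0 to 4 against white light, 3424 to 3658 at 4 h, 1480 to 1714 for the difference between harvests and 1 to 18 between the dark groups. On the arrays of the comparison alone 31 were called against red light, 17 against far-red light and 2 between the dark groups. With the replicate number as a block 144 were called against red light, 127 against far-red light, 4 against white light and 35 between the dark groups. Deviations of same-numbered arrays from their group means correlated less evenly in the last 2 comparisons. They were -0.011, 0.248 and 0.134 for blue with white light and 0.069, 0.144 and 0.217 between the dark groups. Between the dark groups 3 were called with a pseudocount of 16 and 2 without the 2 arrays of conflicting labels. Without those 2 arrays 3578 were called at 4 h and 1537 for the difference between harvests. Without red replicate 2 or 3, 47 and 53 were called against red light. The causes were not tested.

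Of 186 called results for single genes, 133 were called in every alternative and none changed direction; 158 calls were lost over the settings that left out 1 array and 34 on the arrays of the comparison alone. The block added a call for FHL, EXO, TAPX, GH3.17, PORB and THI2.2 against darkness at 45 min, EXO at 4 h, AT4G21500 against red and BZIP34 against far-red light, and changed no other of the results for single genes. Among the lists it also added ATPMEPCRB of the cell wall list (adjusted p = 0.0227). Low signals (HYH, CCR2, BZIP34, AT5G58750) limit what can be said of the size of a change, and the number of arrays limits the precision.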

Other observations

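The largest rise (log2 3.77) and the largest fall (-3.85) at 45 min over all probe sets tested lie in called probe sets without a gene name in the annotation used here. The next largest unnamed rise was 3.67, among called probe sets without overlap and with a higher group mean of at least 50. Of the named genes, AT5G50335 changed by -3.78 at lower signals.

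Of 2885 pairs of neighbouring genes that were both named and tested, 4 pairs were both called in blue light against darkness at 45 min. Of all named probe sets tested, 266 of 8699 were called. Whether 4 pairs are more than this share gives was not tested. In 2 pairs the genes went the same way: AT3G51400 (-0.73) with AT3G51410 (-0.80), and PPR336 (0.65) with AT1G61890 (1.34). In the other pairs they went opposite ways: AT1G27200 (0.82) with AT1G27210 (-0.92), and AT4G37240 (0.55) with AT4G37250 (-0.57). In each pair 1 call was lost without single arrays: AT3G51400 without dark replicate 3 (adjusted p = 0.0592), PPR336 without blue replicate 1 or 2 or any dark replicate (0.0702 to 0.159), AT1G27200 without blue replicate 3 (0.0606) or dark replicate 2 (0.153), and AT4G37250 without blue replicate 1 (0.222) or dark replicate 2 (0.128).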
